A study of Mus musculus with 10 samples.

Results

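The genes described are Trp53, which encodes the transcription factor p53, 5 genes that p53 is known to activate (Cdkn1a, Mdm2, Ccng1, Phlda3 and Zmat3) and the Gadd45 family (Gadd45a, Gadd45b and Gadd45g). They were taken by symbol and are 9 of the 34254 genes counted by scRNA-seq in mouse retinal ganglion cells (RGCs), the neurons whose axons form the optic nerve. In unstressed cells p53 protein is kept low by Mdm2, a ubiquitin ligase whose own gene p53 activates, and under DNA damage and other stresses p53 accumulates and switches on genes of cell cycle arrest, repair and cell death. Gadd45 proteins are small stress-induced proteins that bind kinases of the p38 and JNK pathways, PCNA and the Cdkn1a protein, and their genes respond to p53 and to several pathways other than p53. In RGCs with severed axons, p53 targets and stress kinases have long been studied as parts of the program that leads to cell death.

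The study asked how optic nerve crush (ONC), an injury that severs RGC axons behind the eye, alters gene expression in RGCs. Its 10 libraries comprised 6 of uninjured RGCs and 4 of RGCs taken 2 weeks after ONC. All mice were wild-type 129S1/SvImJ of both sexes at 12 weeks of age, and RGCs were captured through their surface protein Thy1 by immunopanning after macrophages (and, by the methods of the study, amacrine cells) had been depleted, from 10 retinas per batch, with 6000 cells loaded per batch. The design text of the series also names sorting by FACS. Nothing in the labels says that libraries came from separate animals, so p-values here measure the spread between these samples, which may be technical. The deposited values were counts of unique molecular identifiers (UMIs), tags that count each captured RNA molecule once. Libraries held 2839693 to 23180399 UMIs in the uninjured group and 4698799 to 8860536 in the injured group. Median depth per cell was 20437 to 34337 UMIs in the uninjured libraries and 11257 to 14695 in the injured ones.

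The files held 1683 uninjured and 1609 injured cells. Tubb3, Rbpms, Sncg and Slc17a6 each had a UMI in 100% of the cells of every library, but the authors had identified RGCs by these 4 markers, so this share follows from their choice. Thy1, the protein used for capture, was found in 88.5 to 100% and Nefl in 94.1 to 100% of cells. Injured 3 and injured 4 shared 421 cell barcodes, out of 527 and 471, which leaves 1188 distinct injured cells, while any other pair of libraries shared at most 1. The counts of these 2 libraries also differed by about the sampling noise (median chi-square over genes 1.06 times its expected value, against 4.58 to 36.2 for most other pairs within a group). Their mean stands for both as a single sample, injured 3/4, so n is 6 for uninjured and 3 for injured RGCs. Libraries 1 and 2 of each group and libraries 3 with 4 and 5 with 6 of the uninjured group were also alike (1.72 to 2.88).

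Injured libraries also stood apart from each other. Xist, a transcript of female cells, was found in 62.1% of the cells in injured 1 and 67.4% in injured 2, but elsewhere in 0.569% or less, although the labels name both sexes for all. UMIs of the reporter mCherry were found in 7.99% of cells in injured 1, 15.0% in injured 2, 86.0% in injured 3 and 84.3% in injured 4. They were found in 0 of 1683 uninjured cells, and the upper limit of 0.178% on this share covers counting error over pooled cells alone. The study used an AAV2 vector with mCherry as a control in injured eyes, but the labels of these libraries name no virus or reporter, so injury and any treatment that brought mCherry cannot be told apart between the groups. Markers of other cell classes summed to less than the 6 pan-RGC markers (6494 CPM in uninjured and 4596 CPM in injured samples), but some of them changed. Sums in uninjured and injured samples were 8.04 and 9.61 CPM for rod, 1.28 and 0.319 for cone and 3.65 and 0.761 for bipolar markers. For astrocyte markers they were 11.2 and 5.49 CPM and for vascular markers 1.685 and 1.87 CPM, and the sums were not tested. The 7 amacrine markers summed to 183 ± 82.7 CPM (SD, n = 6) in uninjured and 132 ± 64.6 CPM (n = 3) in injured samples, with C1ql1 the most abundant. Of the 7, only Slc6a9 passed, and it rose, from 6.02 to 20.6 CPM without overlap (edgeR quasi-likelihood test, BH-adjusted p = 0.00480). The 6 Muller glia markers summed to 148 ± 32.6 and 107 ± 12.2 CPM. Within that sum Dkk3 fell from 87.7 to 15.6 CPM and Apoe from 7.97 to 2.02 CPM, while Glul rose from 43.8 to 82.2 CPM and Rlbp1 from 1.75 to 10.0 CPM (BH-adjusted p = 5.64e-06, 0.0170, 7.52e-05 and 0.0137 in edgeR's quasi-likelihood test). The groups overlapped for Apoe and not for Dkk3, Glul and Rlbp1. The 7 microglia and macrophage markers summed to 10.1 ± 5.58 and 13.5 ± 5.60 CPM. Of these, Cx3cr1 rose from 3.39 to 9.65 CPM (edgeR quasi-likelihood test, BH-adjusted p = 0.0230). Its groups overlapped, with injured 3/4 at 3.49 CPM inside the uninjured range of 1.68 to 5.43 CPM. P2ry12 did not pass, and 5 markers were too low to be tested. Of those 5, Aif1 was at 0.433 and 1.21 CPM without overlap of the groups, and C1qa and Tyrobp were at 0 in every injured sample (a floor of 3 counts over the group is 0.17 CPM). Cells with at least 3 markers of one such class were 7.96 to 35.6% of uninjured and 1.70 to 11% of injured libraries. With these cells left out, 8 of the 9 genes passed the test described below, as did 44.5% of all 13886 genes then tested.

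Sequence around the gene starts was read from GRCm39 with the GENCODE vM39 annotation, and matches to the p53 response element are shown because it is the sequence through which p53 is known to act on its targets. The element joins 2 arms of 10 bases, and it was searched on both strands in the 3000 bases on each side of the start of the canonical transcript, with no spacer between the arms and with the outer C and G of each arm's core kept. The capitals mark the 4-base core of each arm. Zmat3 held a match with 0 differing bases in intron 1, at position 1418 after the start (chr3:32418480-32418499, reverse strand). Cdkn1a held a match with 1 differing base upstream of the gene, at position -2827 (chr17:29309902-29309921, forward strand). Ccng1 held 2 matches with 1 differing base, upstream at position -161 (chr11:40646289-40646308, reverse strand) and in intron 1 at position 365 (chr11:40645763-40645782, reverse strand).
Zmat3 intron 1: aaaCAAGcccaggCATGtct
Cdkn1a upstream: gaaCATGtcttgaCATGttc
Ccng1 upstream: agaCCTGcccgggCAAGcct
Ccng1 intron 1: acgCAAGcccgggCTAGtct
Among the windows of 21757 protein-coding genes, 0.106% held a match with 0 differing bases and 0.896% one with at most 1. The best matches of Trp53 and Mdm2 had 3 differing bases, those of Phlda3, Gadd45a and Gadd45b had 4 and that of Gadd45g had 5, and windows with at most 3 and at most 4 make up 25.8% and 62.1% of all. A match is a description here and does not show that p53 binds.

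After ONC, 8 of the 9 genes were higher and 1, Ccng1, did not pass the test. The largest rises were those of Cdkn1a (37.0-fold), Gadd45a (21.6-fold) and Gadd45g (7.41-fold), while Trp53, Mdm2, Phlda3, Zmat3 and Gadd45b rose between 1.63-fold and 3.54-fold. These calls came from edgeR's quasi-likelihood test on UMIs summed per sample, with Benjamini-Hochberg (BH) adjustment over all genes tested and a threshold of 0.05. The count is read against a broad change: of 14234 genes tested, 44.0% passed in either direction, 21.3% as higher and 22.7% as lower in injured samples. With similar libraries summed, which leaves fewer samples, 27.05% of 15454 genes passed, 2035 as higher and 2146 as lower. The 9 genes and the lists below were chosen with earlier results of these data known, so counts of them are descriptions. All 9 genes passed the filter on low counts. Their median log2 fold change was 1.49, against −0.03 for all genes tested. For 7 of the 9 genes no injured sample overlapped an uninjured one, which was so for 42.9% of all genes tested. Levels are given in CPM, UMIs scaled to a common total with TMM factors between samples. They count molecules by their 3′ ends, with no correction for length. Malat1, a nuclear lncRNA, also rose, from 31920 ± 12620 CPM (SD, n = 6) to 73040 ± 8449 CPM (n = 3), without overlap (log2 1.19; edgeR quasi-likelihood test, BH-adjusted p = 0.0108). Whether the groups differ in nuclear share or RNA quality was not tested, and among cells with 3 to 5% Malat1 UMIs 8 of the 9 genes and 32.9% of all 10725 genes tested passed.

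**Figure D1:**
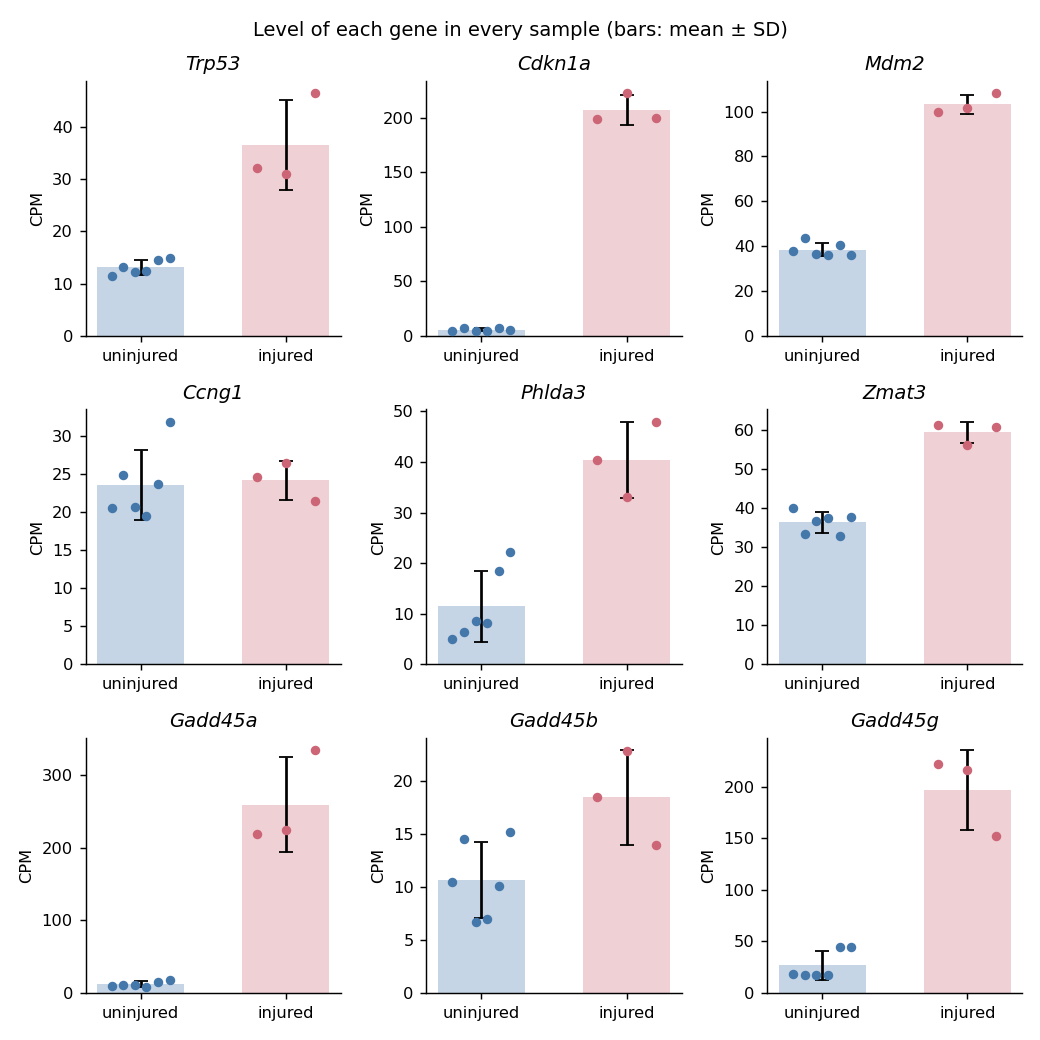
Level of each gene in CPM (vertical axis, starting at 0) in the 6 uninjured and 3 injured samples, with bars for the mean and lines for the SD. For 7 genes every injured point lies above every uninjured point; Ccng1 and Gadd45b overlap.

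Trp53 itself (chr11:69469669-69482701, forward strand, 11 exons in the canonical transcript) ranged from 11.4 CPM in the lowest uninjured sample through a median of 12.8 to 14.9 in the highest. It was at 32.2, 31.0 and 46.5 CPM in injured 1, injured 2 and injured 3/4. The uninjured samples lay close together, with uninjured 5 and uninjured 6 the highest, all injured samples were above them, and injured 3/4 was the highest. The change was 2.80-fold (95% CI 2.21 to 3.55; log2 1.49 ± 0.16 SE; edgeR quasi-likelihood test, BH-adjusted p = 1.38e-05). The protein-coding gene Wrap53 overlaps the first part of Trp53 on the opposite strand, and the defaults of Cell Ranger, which the methods of the study name, count only reads in the sense of a gene. Wrap53 was at 6.20 CPM in uninjured and 4.95 CPM in injured samples (BH-adjusted p = 0.309 in edgeR's quasi-likelihood test).

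Mdm2, the ligase that targets p53 for degradation (chr10:117524780-117546730, reverse strand), was measured at 36.1 CPM in the lowest, 37.3 in the median and 43.5 in the highest uninjured sample. In the injured samples it was 100 CPM, 102 CPM and 108 CPM. The 3 injured samples lay within a narrow band well above all uninjured ones. Mdm2 thus rose 2.69-fold (95% CI 2.28 to 3.17; log2 1.43 ± 0.11 SE; BH-adjusted p = 1.16e-06, edgeR quasi-likelihood test). The change in Mdm2 was of about the size of that in Trp53, and the difference between the 2 changes was not tested.

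Cdkn1a encodes p21, an inhibitor of cyclin-dependent kinases and the best known arrest gene under p53 (chr17:29309936-29319701, forward strand, 3 exons). Uninjured samples ran from 4.14 CPM through a median of 5.35 to 7.72 CPM. Injured 1, injured 2 and injured 3/4 had 199, 222 and 200 CPM. Every injured sample was far above every uninjured one, and the injured samples lay close together. This was a rise of 37.0-fold (95% CI 28.1 to 48.8; log2 5.21 ± 0.18 SE; edgeR quasi-likelihood test, BH-adjusted p = 3.75e-09), and by fitted fold the gene ranked 145 among the 14234 tested. An antisense lncRNA of the annotation, Gm64878, and a further antisense gene, Dino, overlap Cdkn1a but are not among the counted genes.

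Phlda3, a p53 target that restrains Akt by competing for membrane lipids (chr1:135693809-135697686, forward strand), differed among the uninjured samples. Its lowest level there was 5.05 CPM, the median 8.38 CPM and the highest 22.2 CPM. The injured samples had 40.3, 33.0 and 47.9 CPM. Uninjured 5 and uninjured 6, at 18.4 and 22.2 CPM, stood above the other 4 uninjured samples, and all were below the injured ones. Phlda3 rose 3.54-fold (95% CI 2.03 to 6.19; log2 1.83 ± 0.37 SE; BH-adjusted p = 0.00176 by edgeR's quasi-likelihood test). The rise was 4.02-fold without uninjured 5 and 4.27-fold without uninjured 6. With libraries 1 to 4 of each group, where injured 3 and 4 also count separately, it was 5.53-fold, and with all 10 libraries counted separately 3.71-fold. Among cells with 3 to 5% Malat1 UMIs, a limit that changes the cells of every library and left 7 and 8 cells in uninjured 5 and 6, it was 6.50-fold. The smallest of the 29 alternatives was that of cells without mCherry UMIs, at 2.53-fold (edgeR quasi-likelihood test, BH-adjusted p = 0.0401, in a range of 9.99e-08 to 0.0401).

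Zmat3 encodes an RNA-binding zinc finger protein induced by p53 (chr3:32388941-32420163, reverse strand), and its intron 1 holds the match with 0 differing bases printed above. Levels in uninjured samples were 32.9 CPM at the lowest, 37.0 at the median and 40.1 at the highest. In injured samples they were 61.1, 56.1 and 60.7 CPM. The groups did not overlap, and the spread within each was small. The rise of 1.63-fold (95% CI 1.38 to 1.93; log2 0.71 ± 0.11 SE) passed edgeR's quasi-likelihood test with a BH-adjusted p of 0.00029. It was the smallest of the 8 rises.

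Ccng1, cyclin G1, is a p53 target that recruits a phosphatase to Mdm2 (chr11:40639377-40646148, reverse strand). It ranged from 19.6 CPM through a median of 22.2 to 32.0 CPM in uninjured samples. Injured 1, injured 2 and injured 3/4 had 24.7, 26.5 and 21.5 CPM. The injured samples lay inside the uninjured range. The fold was 1.03 (95% CI 0.80 to 1.33; log2 0.05 ± 0.17 SE; edgeR quasi-likelihood test, BH-adjusted p = 0.853), so a rise of the size seen in Zmat3 lies outside the interval. Its sign depended on scaling: with library totals alone the log2 fold change was −0.02. The end of Ccng1 overlaps Nudcd2 on the opposite strand, which was at 24.7 and 18.6 CPM in uninjured and injured samples.

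**Figure D2:**
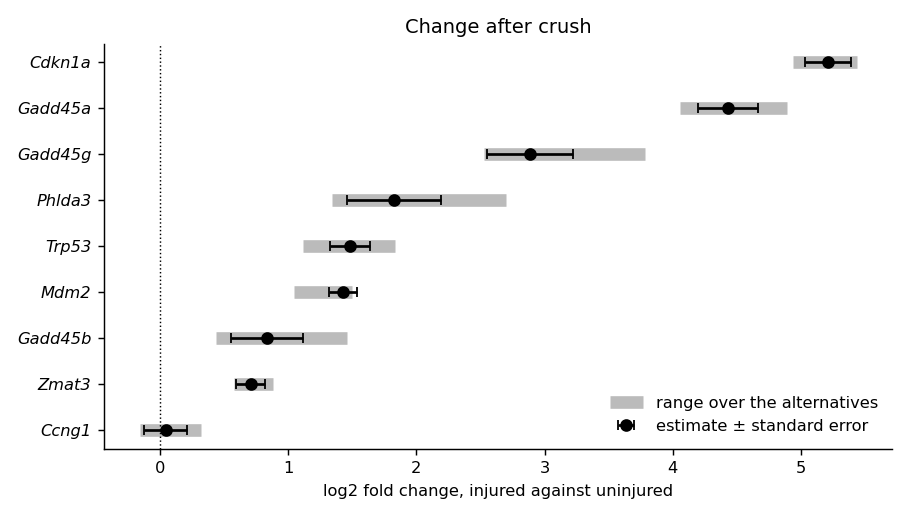
Log2 fold change of each gene, injured against uninjured (horizontal axis), with SE as black lines and the range over the 29 alternative settings as grey bars. Cdkn1a, at 5.21, and Gadd45a, at 4.43, stand at the top, and Ccng1, at 0.05, has a range on both sides of 0.

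The 3 Gadd45 genes changed by very different amounts. Gadd45a, the family member best known as a p53 target (chr6:67012070-67014441, reverse strand, 4 exons), was at 8.47 CPM in the lowest, 10.7 in the median and 17.9 in the highest uninjured sample. It reached 219, 224 and 335 CPM in injured 1, injured 2 and injured 3/4. Both groups were far apart, uninjured 5 and uninjured 6 (15.6 and 17.9 CPM) were above the other uninjured samples (at most 10.8), and injured 3/4 was above the other injured samples, with 318 CPM in injured 3 and 358 CPM in injured 4. The rise was 21.6-fold (95% CI 15.2 to 30.8; log2 4.43 ± 0.23 SE; edgeR quasi-likelihood test, BH-adjusted p = 8.15e-08). The lncRNA E230016M11Rik overlaps Gadd45a on the opposite strand; it was at 28.6 CPM in uninjured and 32.5 CPM in injured samples.

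Gadd45g, a member studied in differentiating neurons and as a growth inhibitor (chr13:52000714-52002508, forward strand, 4 exons), had 17.1 CPM in the lowest, 18 in the median and 45.0 in the highest uninjured sample. Its injured levels were 222, 217 and 153 CPM. Uninjured 5 and uninjured 6, at 45.0 and 44.9 CPM, were above the other uninjured samples, as for Phlda3, and injured 3/4 was the lowest injured sample. Gadd45g rose 7.41-fold (95% CI 4.45 to 12.3; log2 2.89 ± 0.34 SE; BH-adjusted p = 3.25e-05 in edgeR's quasi-likelihood test). Among cells with 3 to 5% Malat1 UMIs, a limit that left 7 and 8 cells in uninjured 5 and 6, the rise was 13.8-fold (log2 3.78). That was the largest of the 29 alternatives, and the smallest, without injured 1 and 2, was a log2 fold change of 2.53.

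Gadd45b, a member known to respond to NF-κB and to neuronal activity (chr10:80764523-80768038, forward strand, 4 exons), gave a call that rests on single libraries. Uninjured samples had 6.69 CPM at the lowest, 10.3 at the median and 15.2 at the highest. Injured 1 and injured 2 had 18.6 and 22.9 CPM, and injured 3/4 had 14.0 CPM. Injured 3/4 lay inside the uninjured range, below uninjured 2 and uninjured 6, and injured 1 and injured 2 lay above it. The fold was 1.79 (95% CI 1.17 to 2.73; log2 0.84 ± 0.28 SE; edgeR quasi-likelihood test, BH-adjusted p = 0.0296). The BH-adjusted p of edgeR's quasi-likelihood test was 0.0825 without injured 1, 0.142 without injured 2 and 0.531 without both, within a range over all alternatives of 8.62e-05 to 0.531. It was 0.112 for cells without Xist UMIs, 0.206 for cells without mCherry UMIs and 0.14 with similar libraries summed. Among cells with 3 to 5% Malat1 UMIs the fold was larger, 2.75, with an adjusted p of 0.00955 in the same test.

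These changes altered the makeup of the Gadd45 transcripts. In uninjured samples Gadd45g gave 52.2% ± 8.03 of all Gadd45 UMIs (SD, n = 6), Gadd45a 25.2% ± 2.99 and Gadd45b 22.6% ± 7.18. In injured samples Gadd45a gave 47.7%, 48.4% and 66.8%, above every uninjured sample. Gadd45b gave 4.04%, 4.94% and 2.79%, below every uninjured sample, although its CPM was higher after injury. The share of Gadd45g was 48.3%, 46.7% and 30.4%, and it overlapped the uninjured range of 40.4 to 63.6%. Summed over the family, the level was 49.6 ± 19.6 CPM (SD, n = 6) in uninjured and 475 ± 22.9 CPM (n = 3) in injured samples. These shares were not tested, and they compare 3′ UMIs of transcripts of 1233, 1284 and 1071 bases for Gadd45a, Gadd45b and Gadd45g.

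**Figure D3:**
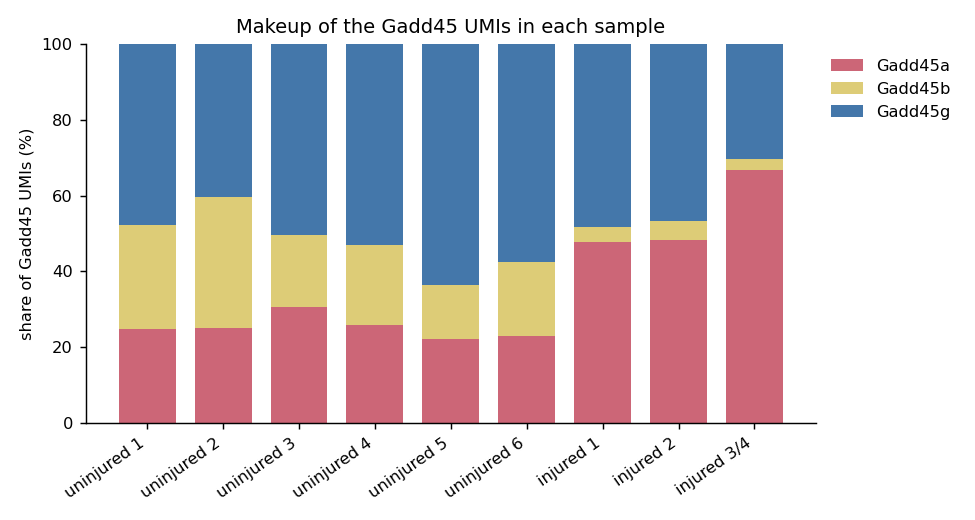
Share of Gadd45a, Gadd45b and Gadd45g in all Gadd45 UMIs of each sample, in percent. Gadd45a takes 22.1 to 30.6% of the bar in uninjured samples and 47.7 to 66.8% in injured samples, and Gadd45b at most 4.94% in injured samples.

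Since Gadd45a and Gadd45g rose together, their proximal promoters were read from GRCm39 and set beside that of Gadd45b. Motifs were searched on both strands in the 250 bases before each start: the octamer ATGCAAAT, bound by POU-domain factors, the CCAAT box (CCAAT), bound by NF-Y, the cyclic AMP response element (TGACGTCA), the AP-1 site (TGANTCA) and the TATA box (TATAAA). These motifs were chosen after the sequences had been read. The stretch from position -120 to -61 is printed below, 5′ to 3′ on the strand of the gene, with octamers and CCAAT boxes in capitals. The same stretch of Gadd45b is left out because it overlaps an annotated exon of that gene. The printed stretch lies outside the annotated exons of the gene at chr6:67014451-67014510 (reverse strand) for Gadd45a and at chr13:52000594-52000653 (forward strand) for Gadd45g.
Gadd45a promoter: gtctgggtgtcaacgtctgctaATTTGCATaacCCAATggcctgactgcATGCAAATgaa
Gadd45g promoter: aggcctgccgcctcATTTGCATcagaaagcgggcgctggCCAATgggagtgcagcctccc
Gadd45a held 2 octamers, at -98 to -91 on the opposite strand and at -71 to -64, and Gadd45g held 1, at -106 to -99 on the opposite strand. No octamer was in the window of Gadd45b or of the other 6 genes, and 1.49% of 21757 promoters of protein-coding genes hold one. CCAAT boxes lay at -87 to -83 in Gadd45a and at -81 to -77 in Gadd45g, and 2 lay in Gadd45b, but 36.5% of promoters hold one. A TATA box was found at -28 to -23 in Gadd45b and at -30 to -25 in Gadd45g and in 11.9% of promoters, and not in Gadd45a. The cyclic AMP response element (1.70% of promoters) and the AP-1 site (6.18%) had no match in the 3 windows. No match says only that these letters are not in the window, and a match is a description, not a site or a cause.

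Cells that held a UMI were counted after each cell had been thinned to 8000 UMIs, which makes depths alike and left out 29 uninjured and 233 injured cells below that depth, with shared barcodes counted in both libraries. Cdkn1a was found in 4.96% ± 2.08 of thinned uninjured cells (SD, n = 6) and in 75.2%, 77.3% and 68.8% of the cells of injured 1, injured 2 and injured 3/4. Without thinning its share was 12.3% in uninjured and 83.8% in injured samples. UMIs of Cdkn1a were thus found in most injured and in few uninjured cells. For Gadd45a the share rose from 8.72% ± 3.26 to 70.0% ± 3.29 (25% and 76.6% without thinning). For Gadd45g it went from 16.5% ± 7.82 to 52.5% ± 7.53 (40.1% and 61.7%). Mdm2 went from 25% ± 3.07 to 55.1% ± 2.92 (62.4% and 73.3%).

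Smaller differences were seen for the other 5 genes. Trp53 was found in 10.3% of thinned uninjured and 24.6% of thinned injured cells (29.8% and 40.3% without thinning), and Phlda3 in 7.72% and 23.0% (22% and 36.6%). For Zmat3 the thinned shares were 23.6% and 32.7%, whereas those without thinning were 57.4% and 50.8%, since uninjured cells were deeper. Gadd45b was found in 6.07% and 10.6% of thinned cells (17.0% and 17.7%) and Ccng1 in 16.6% and 15.1% (44.5% and 28.5%). The groups of samples overlapped in their thinned shares for these last 2 genes. The part of free RNA in these shares was not estimated, and RGCs were the only cells deposited, so no other cell type could serve as a reference.

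**Figure D4:**
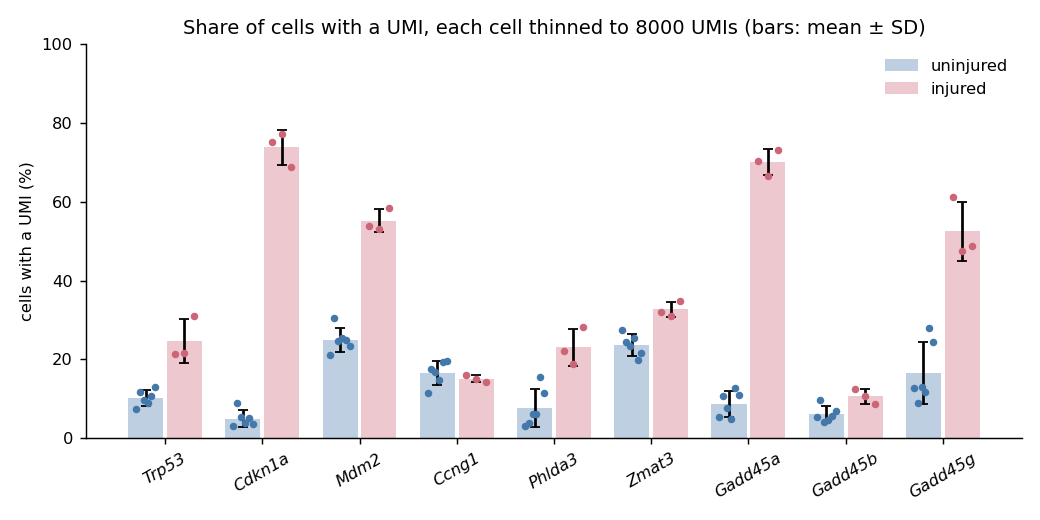
Share of cells with a UMI of each gene, in percent, after thinning each cell to 8000 UMIs; points are samples, bars are means and lines are SDs. Cdkn1a and Gadd45a go from 4.96% and 8.72% in uninjured to 73.8% and 70.0% in injured samples, while Ccng1 stays near 16.6 and 15.1%.

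Within injured samples the 3 genes with the largest rises were spread over the cells in different ways. At 8000 UMIs per cell, 32.5% of injured cells held at least 3 UMIs of Gadd45a, 25.1% of Cdkn1a and 19% of Gadd45g. In uninjured samples these shares were 0.109% for Cdkn1a and 0.984% for Gadd45g. For Gadd45a it was 0 of 1654 cells, and the upper limit of 0.181% covers counting error over pooled cells alone. The tenth of cells with the most Gadd45g UMIs held 45.3% ± 1.88 of them (SD, n = 3), against 32.5% ± 0.998 for Gadd45a and 30.8% ± 0.671 for Cdkn1a. Gadd45g was thus the most uneven of the 3 across cells. Of injured cells, 34.2% ± 2.42 held UMIs of all 3 genes, 36.5% ± 2.35 of 2, 20.6% ± 2.28 of 1 and 8.72% ± 2.22 of none. In uninjured cells these shares were 0.109% ± 0.201, 3.18% ± 2.33, 23.5% ± 6.02 and 73.2% ± 8.0.

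Co-expression was described over the thinned cells of each injured sample, as Pearson's r of log counts averaged over the 3 samples, without a test, since cells of a library share its preparation and counts this sparse keep r low. The pair with the highest mean r among the 9 genes was Gadd45a and Gadd45g, with r = 0.15, 0.27 and 0.33 in injured 1, injured 2 and injured 3/4 and a mean of 0.03 in uninjured samples. UMIs of both were found in 41.9% of injured cells, against 36.8% as the product of the separate shares. Cdkn1a and Gadd45a followed with a mean r of 0.20 (0.14 to 0.29), and all other pairs had a mean r of at most 0.10. Trp53 had a mean r of 0.06 with Cdkn1a and 0.10 with Mdm2. In counts this sparse, values of that size are no finding.

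Genes with the most similar pattern over injured cells were taken from 7701 genes with a UMI in at least 10% of the thinned cells of every injured library. For Gadd45a they were Gap43 (mean r 0.44), Atf3 (0.43), Tpt1 (0.40), Tnfrsf12a (0.39) and Rps20 (0.38), where the 99th percentile of all eligible genes was 0.28. Gap43 is a growth cone protein and Atf3 a stress-induced transcription factor, and both are among the axon injury response genes. Those of Gadd45g were S100a10 (0.41), Tmsb4x (0.40), Ctsb (0.38), Tubb3 (0.38) and Neto1 (0.37), with a 99th percentile of 0.22. Cdkn1a was closest to Jpt1 (0.34), Tmsb10 (0.33), Eif1 (0.33), Stmn2 (0.32) and Stmn1 (0.31), with a 99th percentile of 0.23. The 5 genes named for each did not recur among those of the other 2, but Atf3 ranked 7 (0.37) and Gap43 12 (0.33) for Gadd45g, and Gap43 ranked 11 (0.28) for Cdkn1a. The r of each neighbour of Gadd45a and Cdkn1a was highest in injured 3/4 (Gap43 with Gadd45a: 0.36, 0.43 and 0.52), and those of Gadd45g in injured 1 or injured 2. Before thinning, 428 of 527 and 391 of 471 cells in injured 3 and 4 held at least 1% ribosomal protein UMIs. In injured 1 and 2 these were 337 of 338 and 272 of 273. The part of cell quality in these r was not tested. For Mdm2 the highest was Ddit3, the stress transcription factor CHOP, at 0.20, followed by Gm13889, Hspa9, Scg2 and Cpe at 0.15, while Sncg, a pan-RGC marker, had the lowest r of all 7701 genes, −0.18. The remaining neighbours had a mean r of at most 0.20: Rplp0, Rpl41, Pmm1 and Gng5 for Trp53, Vdac1, Tmsb4x, Hsp90ab1, Rpl41 and Ndufab1 for Phlda3, and Dusp10, Lgi2, Airn, Bsn and Fndc4 for Zmat3. Ccng1 and Gadd45b were in fewer than 20% of thinned injured cells, and no neighbours are named for them.

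Other genes of the pathway moved in both directions. Of 25 other p53 target genes, 19 were tested, 6 of them rose (Sesn2, Bbc3, Sesn1, Apaf1, Ppm1d and Pmaip1), 4 fell (Ddb2, Plk3, Tigar and Ei24) and 9 did not pass. Over all genes tested, 21.3% rose and 22.7% fell, and no list was tested as a whole. Perp, Fas, Tnfrsf10b, Eda2r, Pidd1 and Ephx1 were too low to be tested. The median log2 fold change was 0.10, against −0.03 for all genes. Sesn2 and Bbc3 are also among the axon injury response genes, and Btg2, which did not pass, among the immediate early genes.

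The 4 genes of this list with the smallest adjusted p all rose. Pmaip1, which encodes the BH3-only protein Noxa, had 0 UMIs in all uninjured samples and 20.8, 23.8 and 22.8 CPM in injured 1, injured 2 and injured 3/4. It thus passed the filter on low counts only through the injured samples, and its p-value is left out. Against a floor of 3 counts over the uninjured group (0.0556 CPM), its mean of 22.5 CPM was at least 405-fold higher. At this bound Pmaip1 stays above the list's median, which is unchanged. Bbc3, which encodes the BH3-only protein Puma, went from 12.3 ± 4.75 CPM (SD, n = 6) to 70.6 ± 22.2 CPM (n = 3), a log2 fold change of 2.59 (BH-adjusted p = 4.50e-05 by edgeR's quasi-likelihood test). Sesn2, a sestrin that restrains mTORC1, went from 5.35 ± 1.18 to 35.3 ± 3.34 CPM, a log2 fold change of 2.73 (edgeR quasi-likelihood test, BH-adjusted p = 2.79e-07). Apaf1, the core of the apoptosome, went from 14.6 ± 3.83 to 36.5 ± 5.70 CPM, a log2 fold change of 1.33 (BH-adjusted p = 0.000194, edgeR quasi-likelihood test). The groups did not overlap for these 4 genes. Bax, the effector of mitochondrial cell death in RGCs, was at 80.7 ± 31.6 CPM in uninjured and 89.6 ± 18 CPM in injured samples and did not pass (log2 0.16; BH-adjusted p = 0.684 by edgeR's quasi-likelihood test). As for Phlda3 and Gadd45g, uninjured 5 and uninjured 6 stood apart, at 117 and 125.5 CPM, above all injured samples (72.3 to 108), and the other 4 were at 57.9 to 62.7 CPM, below them.

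Of 21 genes that regulate p53, 16 were tested, 4 rose (Cop1, Rchy1, Sirt1 and Daxx), 0 fell and 12 did not pass, with a median log2 fold change of 0.18. Among all genes tested, 21.3% rose and 22.7% fell. Rchy1 and Cop1 encode further ubiquitin ligases of p53. Rchy1 went from 48.1 ± 7.27 to 93.6 ± 6.03 CPM (log2 0.96; edgeR quasi-likelihood test, BH-adjusted p = 0.000156). Cop1 went from 78.9 ± 7.82 to 109 ± 6.87 CPM (log2 0.46; BH-adjusted p = 0.00828 by edgeR's quasi-likelihood test). Daxx, an adaptor of Mdm2, rose by a log2 fold change of 0.61 from 11.4 CPM, and Sirt1, a p53 deacetylase, by 0.61 from 12.2 CPM. Mdm4, the relative of Mdm2, was at 65.0 and 82.9 CPM and did not pass (log2 0.35; edgeR quasi-likelihood test, BH-adjusted p = 0.103). Cdkn2a, whose product Arf restrains Mdm2, was too low to be tested, as were Chek1, Chek2, Trp63 and Trp73.

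Of 13 known partners of Gadd45 proteins, 11 were tested, 4 rose (Tdg, Map2k3, Mapk8 and Mapk14), 3 fell (Map2k7, Ing1 and Map2k6) and 4 did not pass, with a median log2 fold change of −0.15. The shares over all genes tested were 21.3% higher and 22.7% lower. The kinases Map2k3 and Map2k6, which both activate p38, moved in opposite directions. Map2k3 went from 6.35 ± 1.10 to 26.8 ± 2.57 CPM (log2 2.07; edgeR quasi-likelihood test, BH-adjusted p = 1.10e-06). Map2k6 went from 19.9 ± 2.74 to 5.32 ± 0.902 CPM (log2 −1.90; BH-adjusted p = 8.64e-06 by edgeR's quasi-likelihood test). In both genes the groups were without overlap. Mapk14, p38 alpha, rose from 53.8 to 95.3 CPM (log2 0.82) and Mapk8, JNK1, from 51.3 to 78.4 CPM (log2 0.60). Map3k4, the kinase that Gadd45 proteins are known to activate, was among those that did not pass (log2 −0.38; edgeR quasi-likelihood test, BH-adjusted p = 0.159).

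Among 16 cyclin-dependent kinases, cyclins and inhibitors other than Cdkn1a, 12 were tested, 3 rose (Cdk6, Ccnd2 and Ccnd1), 1 fell (Ccne1) and 8 did not pass, with a median log2 fold change of 0.07. Of all 14234 genes tested, 3026 rose, 3230 fell and 7978 did not pass. Ccnd2, a D-type cyclin, went from 0.726 ± 0.596 CPM to 40.0 ± 5.05 CPM (fitted log2 6.12), on 27 UMIs over the uninjured samples. Its kinase partner Cdk6 went from 0.512 to 7.32 CPM (fitted log2 3.57), on 33 UMIs over the uninjured samples. Both passed the filter on low counts only through the injured samples, so their p-values are left out. Ccne1, cyclin E1, fell from 15.1 ± 4.11 to 2.27 ± 1.19 CPM (log2 −2.64; edgeR quasi-likelihood test, BH-adjusted p = 7.28e-05). Ccnd1 went from 1.69 to 5.11 CPM (log2 1.61). The related inhibitor Cdkn1b was at a log2 fold change of −0.05 and Cdkn1c at −1.54, and neither passed.

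Of 12 axon injury response genes, 12 rose, with a median log2 fold change of 3.31, whereas 21.3% of all genes tested rose. Sox11, a transcription factor of developing neurons, went from 28.2 ± 4.32 to 1083 ± 85.1 CPM (log2 5.27; edgeR quasi-likelihood test, BH-adjusted p = 1.85e-09). Hrk, another BH3-only gene, went from 0.708 ± 0.596 to 254 ± 31.8 CPM (fitted log2 8.35), on 42 UMIs over the uninjured samples. It passed the filter on low counts only through the injured samples, so its p-value is left out. Ddit3 went from 45.2 ± 2.17 to 556 ± 35.4 CPM (log2 3.62; edgeR quasi-likelihood test, BH-adjusted p = 2.39e-09). Sprr1a had 2 UMIs over all uninjured samples and 667, 988 and 777 CPM in the injured ones, so it too passed the filter only through the injured samples. The rise of Cdkn1a was thus close in size to that of Sox11, with log2 fold changes of 5.21 ± 0.18 and 5.27 ± 0.16 SE.

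Of the 10 immediate early genes, which respond to stimulation and to cell dissociation, 3 rose (Ier2, Dusp1 and Egr1), 4 fell (Fosb, Fos, Nr4a1 and Npas4) and 3 did not pass, with a median log2 fold change of 0.36. In all genes tested, 21.3% rose and 22.7% fell. The summed level of the 10 genes was 254 ± 128 CPM (SD, n = 6) in uninjured samples, with uninjured 5 and uninjured 6 the highest at 438 and 372 CPM, and 337 ± 92.7 CPM (n = 3) in injured samples. Those were also the uninjured samples with the most Phlda3, Gadd45g, Gadd45a and Trp53, and the part of dissociation in that difference was not tested. Egr1 went from 28.2 to 129 CPM (log2 2.24; edgeR quasi-likelihood test, BH-adjusted p = 0.000377). Fos went from 87.1 to 16.6 CPM (log2 −2.39; BH-adjusted p = 0.00491 by edgeR's quasi-likelihood test).

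Cells with mCherry UMIs could be set beside cells without them inside injured 3 and injured 4 (453 and 397 against 74 and 74 cells), with CPM by library totals averaged over both and no test. Cells with mCherry held 7855722 and 5521305 UMIs in injured 3 and injured 4, and those without held 1004814 and 753913. Cells without mCherry were thus shallower on average, and a reporter UMI is more easily missed in a shallow cell. The 2 sets were not matched for depth or ribosomal protein share, and the part of either was not tested. With mCherry, Gadd45a was at 356, Cdkn1a at 212 and Phlda3 at 51.9 CPM, and without it at 159, 87.1 and 12.3 CPM, the last inside the uninjured range on this scale (5.28 to 21.0 CPM), while Zmat3 was at 56.8 with and 86.7 without. Trp53 was at 48.9 with and 23.5 CPM without mCherry, Mdm2 at 108 and 94.5 and Gadd45g at 159 and 79.8. Gadd45b was at 15.2 with and 3.65 without (2 and 4 UMIs in injured 3 and injured 4), and Ccng1 at 22.8 and 10.4 (13 and 6 UMIs). Without mCherry these 2 genes were thus below the lowest uninjured sample on the same scale (7.02 and 20.5 CPM). Over all cells without mCherry UMIs, 7 of the 9 genes and 36.8% of all 13873 genes tested passed against uninjured samples, with log2 fold changes of 4.94 for Cdkn1a, 4.06 for Gadd45a and 2.74 for Gadd45g.

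Subsets of RGCs were marked by at least 3 UMIs of a marker gene per thinned cell, in libraries with at least 5 such cells, and their levels are CPM by library totals, given without a test because of the few cells. Numbers of injured cells count each shared barcode of injured 3 and 4 once. Injured cells with Opn4, the melanopsin gene of intrinsically photosensitive RGCs (27 cells), had 133 ± 39.6 CPM of Cdkn1a (SD, n = 3), against 5.97 ± 7.29 CPM (n = 6) in their uninjured counterparts (43 cells). In the same cells Gadd45a was at 13.7 ± 12.0 CPM after injury, on 0 UMIs in injured 1, 2 in injured 2 and 7 over both libraries of injured 3/4, and at 13.4 ± 10.4 CPM without injury, whereas over all cells it was at 252 and 12.2 CPM. Among the other genes, injured and uninjured means in Opn4 cells were 14.4 and 27.6 CPM for Gadd45g, 37.0 and 41.4 for Mdm2, 32.0 and 32.4 for Zmat3 and 42.9 and 58.9 for Gadd45b. Phlda3 was at 43.0 and 9.73, Trp53 at 21.6 and 16.2 and Ccng1 at 8.84 and 20.8 CPM. Cells with Eomes, a transcription factor of that RGC class (13 injured cells from 2 samples; a cell can be in both sets), had 80.1 CPM of Cdkn1a, 12.1 CPM of Gadd45a (2 UMIs in injured 2 and 1 over both libraries of injured 3/4) and 65.3 CPM of Gadd45b, and in uninjured Eomes cells Gadd45a was at 4.22 CPM. Gadd45g in injured Eomes cells was at 276 CPM in injured 2 (29 UMIs) and 23.0 CPM in injured 3/4, against a mean of 18.4 CPM in uninjured ones. Gadd45b was at 58.9 ± 43.0 CPM in uninjured Opn4 cells and at 61.7 ± 22.8 CPM in uninjured Eomes cells, against 10.7 CPM over all uninjured cells. Injured cells with Spp1 (47 cells), a marker of alpha RGCs, had 305 ± 66.1 CPM of Gadd45a and 125 ± 7.45 CPM of Cdkn1a. Those with Foxp2, a marker of F-RGCs (61 cells), had 185 ± 37.5 CPM of Gadd45a and 172 ± 34.3 CPM of Cdkn1a, and those with Cartpt (23 cells), a marker of direction-selective RGCs, had 77.2 ± 9.54 and 102 ± 45.6 CPM. The 10 subset markers summed to 830.5 ± 306 CPM in uninjured and 234 ± 89.3 CPM in injured samples, so injured and uninjured sets need not hold the same RGC types. Cartpt led the uninjured sum and fell from 564 to 41.7 CPM. Spp1 had the higher mean after injury, at 21.6 and 92.6 CPM in uninjured and injured samples, and did not pass. Its uninjured set held 5 cells from 1 sample.

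**Figure D5:**
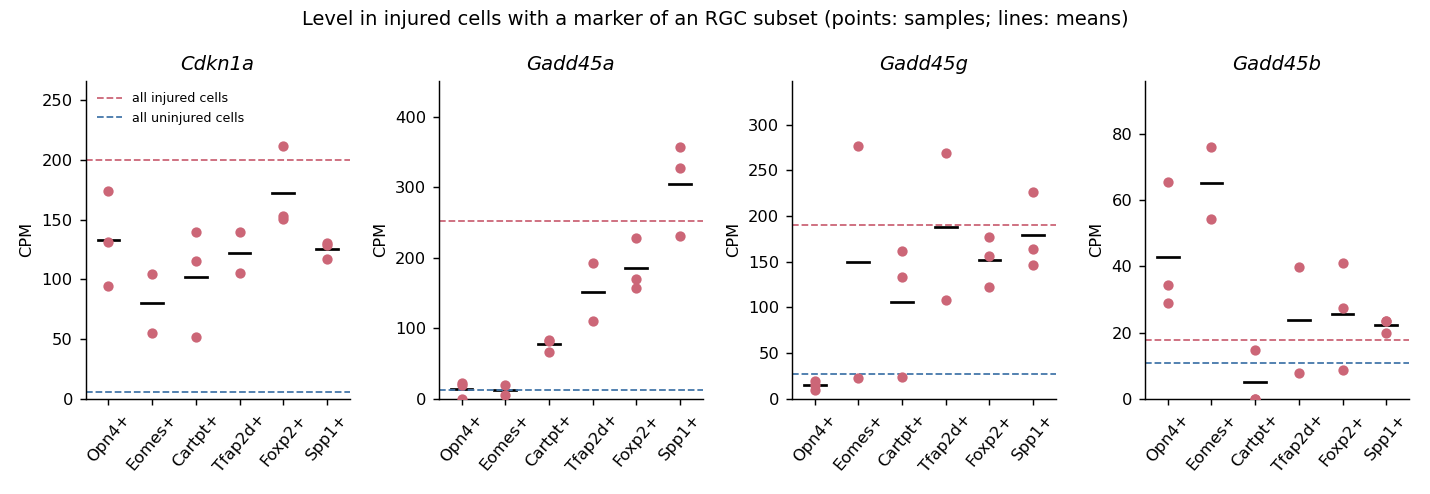
CPM by library totals of Cdkn1a, Gadd45a, Gadd45g and Gadd45b in injured cells with a marker of an RGC subset (points are samples, short lines are means); dashed lines are the means of all injured and all uninjured cells. Cdkn1a lies above its uninjured mean of 5.81 CPM in each set, while Gadd45a is at 13.7 CPM in Opn4 cells and at 305 CPM in Spp1 cells.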

How the data were processed

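Deposited values were raw UMI counts per gene and cell of RGCs selected by the authors, made with Cell Ranger 7.0.1 and mm39 per the submitters' processing notes. The labels name the v3 kit and a NovaSeq, whereas the methods of the study name the v2 kit, a HiSeq and an earlier Cell Ranger, and this was not resolved. All 3292 cells met the authors' limits (at least 500 genes, at most 150000 UMIs). The methods of the study give the same number of uninjured cells as the files, but an injured number between the 1188 distinct cells and the 1609 cells listed, so the injured files are not the set described there. No doublet caller was run, since the authors had already applied their UMI limit, and cells without markers of another class were run instead.

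Counts were summed per library in Python 3.11.15 (pandas 2.3.3, scipy 1.17.1, numpy 2.4.6), and injured 3 and 4 were averaged with rounding. edgeR 4.0.16 in R 4.3.3 was used (filterByExpr, TMM, robust quasi-likelihood fit, condition as the only term, BH threshold 0.05), with SEs and 95% intervals from the log2 fold change and F. The script was tested on simulated data. Figures were drawn with matplotlib 3.10.9. Floors (3 counts) cover counting error alone.

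Named were all 9 genes, the 4 genes of each of the 6 lists with the smallest adjusted p, up to 5 genes with the highest mean r per gene (4 of the 5 for Trp53), and background genes (Bax, Mdm4, Map3k4, Cdkn1b, Cdkn1c, Malat1, overlapping genes, markers of other classes) chosen after their values were seen. The members and lists were chosen with earlier results of these data known. Alternatives were DESeq2 1.42.0, limma-voom (limma 3.58.1), other scaling and filters on low counts, sets of cells (mitochondrial share, other-class markers, thinning, Xist, mCherry, Malat1, ribosomal protein UMIs), libraries separate, summed or left out, and the replicate number as a block. Gene IDs in the files are symbols, and positions come from the GENCODE annotation matched by symbol. A processed pseudogene of Trp53 on chromosome 17 is not among the counted genes.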

Additional observations from a re-analysis of the deposited data

Results flagged for a closer look

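In 54 groups of 6 uninjured samples, 3 held a sample far from the others, and chance flags about 1 in 20 groups. Ccnd1 was at 3.08 CPM in uninjured 2 and at 1.01 to 1.73 CPM in the other uninjured samples. Sprr1a was at 0.184 CPM in uninjured 5 and at 0 to 0.0411 CPM in the others, but its 2 UMIs over all uninjured samples are below the floor of 3 counts. The thinned share of cells with Cdkn1a was 8.82% in uninjured 2 and 3.16 to 5.28% in the others.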

How the results depend on the processing

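Over 29 alternatives, 3160 to 8307 genes and 7 or 8 of the 9 genes passed. In 23 alternatives 8 passed, and in the other 6 Gadd45b was lost. The remaining 7 risen genes passed in 29 of 29, and no direction of a called gene reversed. Log2 fold changes ran from 4.94 to 5.43 for Cdkn1a, 4.06 to 4.89 for Gadd45a, 2.53 to 3.78 for Gadd45g, 1.34 to 2.70 for Phlda3, 1.12 to 1.83 for Trp53, 1.05 to 1.5 for Mdm2, 0.58 to 0.88 for Zmat3, 0.44 to 1.46 for Gadd45b and −0.15 to 0.32 for Ccng1, which passed in 0. With 3 to 5% Malat1 UMIs, 3528 genes passed, with fewer cells. Without injured 1 and 2, an alternative added after the data were seen, 3160 passed, with 1 injured sample assumed to vary like the uninjured ones. Leaving out each library in turn gave 4961 to 6420 genes and 7 to 8 of the 9.

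The replicate number did not pair libraries: deviations of same-numbered libraries 1 to 4 correlated at −0.06, 0.01, −0.03 and −0.05 across genes. With the replicate block 8307 genes and 8 of the 9 passed, and without it 8230 and 8, with injured 3 and 4 as separate libraries. The fewest UMIs over a group were 280 of Cdkn1a in uninjured and 312 of Gadd45b in injured samples, and levels in RGC subsets rest on few UMIs.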
